A study of Homo sapiens with 8 samples.

Results

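The genes described are 44 enzymes that attach ubiquitin to proteins or remove it, out of 19974 protein-coding genes on chromosomes 1 to 22 and X. They form 2 groups. The ligase group holds 25 genes, namely 13 HECT ligases, 6 UBR and RING ligases, 1 U-box ligase, 2 E2 and E3 hybrids, 2 cullins and 1 E1 enzyme. The other group holds 19 ubiquitin-specific proteases (USP). A member was counted as carrying a peak where a listed peak lay whole within its gene span on GRCh38. All 44 were found in the gene table. The data come from RNA immunoprecipitation and sequencing (RIP-seq) with an antibody against METTL3, the enzyme that writes N6-methyladenosine on RNA. LNCaP, an androgen-sensitive human prostate cancer line, and PC3, an androgen-independent one, were each sampled as METTL3 IP and input, with 2 replicates in each of the 4 groups (8 samples). Neither line carried a treatment or an engineered allele, per the labels, and each was grown in its own share of serum. The IgG control named in the protocol was not analysed here. The deposited result is 1 peak list per line, so every value stands for a whole line, with no error between replicates and at unknown depth. No test between lines or against other genes was made on the members.

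Ubiquitin is passed from an E1 activating enzyme to an E2 carrier and then, with the help of an E3 ligase, to a target protein. HECT ligases take the ubiquitin onto themselves first, RING and U-box ligases bring the carrier to the target, and cullins are scaffolds for RING ligases. The USP family cuts ubiquitin off again. Several of these enzymes, HUWE1 and HERC2 among them, are among the largest proteins of the cell, with long messenger RNAs.

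The LNCaP list held 2616 peaks and the PC3 list 1033, and 97.0% and 97.3% of them lay within a protein-coding gene. The fold of a peak is linear and is the authors' own. The header names no denominator, and the design makes METTL3 IP over input the likely one. The lists ended at different p-values, 0.0178 in LNCaP and 1.59e-05 in PC3. Among the marker genes looked up, FOLH1 and TMPRSS2 carried peaks in LNCaP, KLK2 and KLK3 did not, and none of CD44, VIM and CAV1 did in PC3. A peak is not an expression level, so the lists do not check the identity of the lines.

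USP4 carried no peak in either line. Its span on chromosome 3, from 49277144 to 49340053 on the minus strand (62910 bp), was touched by 0 peaks in LNCaP and 0 in PC3. The nearest LNCaP peak lay 144.2 kb away within LAMB2 (49132908 to 49132958, fold 13.0), and the nearest PC3 peak 191.3 kb away within DAG1 (49531373 to 49532073, fold 9.24). Among 1799 other genes with a span within 20% of that of USP4, 6.67% carried a LNCaP peak and 2.72% a PC3 peak, so most genes of this span were likewise without one.

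HUWE1, a HECT ligase with MYC, p53 and MCL1 among its known substrates, carried the most peaks of the 44 genes in both lines. Its introns also hold the hairpins of 2 microRNAs of the let-7 family, and in each line 1 HUWE1 peak spanned both hairpins on the strand of the gene. The LNCaP peak ran over chrX:53554913-53559530 (fold 6.62) and the PC3 peak over chrX:53554888-53559480 (fold 8.47). The hairpin MIR98 lies at chrX:53556223-53556341 and MIRLET7F2 at chrX:53557192-53557274, both on the minus strand of GRCh38.p14. Their mature sequences are shown because they are the only microRNAs of the RefSeq table inside a member's peak. For MIRLET7F2 only the sequence of the 5p arm is shown. The sequences are given 5′ to 3′ from RefSeq with the seed, bases 2 to 8, in capitals.
hsa-miR-98-5p: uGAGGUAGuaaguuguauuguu
hsa-let-7f-5p: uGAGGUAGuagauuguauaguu
hsa-miR-98-3p: cUAUACAAcuuacuacuuuccc
The 2 sequences of the 5p arm share the seed GAGGUAG, while the 3p arm of miR-98 has another, UAUACAA. Hairpins also lie within BIRC6 (MIR558), USP20 (MIR6855), WWP2 (MIR140) and ITCH (MIR644A), and none of these 4 genes carried a peak. A peak with a hairpin on its strand was 1 of 56 on members in LNCaP and 1 of 22 in PC3, against 27 of 2482 (1.09%) and 3 of 983 (0.305%) on other genes. The span of a peak includes introns, so it does not say whether reads covered the hairpins themselves.

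In LNCaP, 16 of the 44 members carried a peak (36.4%, 95% Wilson interval 23.8 to 51.1%, counting error only). Over all protein-coding genes the share was 5.62%. In PC3, 9 of 44 members did (20.5%, interval 11.2 to 34.5%), against 1.83% of all protein-coding genes. The members are long genes, with a median span of 127200.5 bp against 24104 bp over the 19930 others. Other genes of like length, those whose span lay within 20% of a member's, carried a peak in 9.49% of cases in LNCaP and 3.53% in PC3, averaged over the 44 members. The share among members was 3.83 and 5.80 times these values. Span includes introns, so the length of the messenger RNA and the expression of the genes were not matched. The member list was drawn up with the peak lists known, and the difference from other genes is therefore a description of the list.

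The ligase group and the USP proteases carried peaks at nearly the same share in LNCaP. There, 9 of 25 in the ligase group (36.0%, interval 20.3 to 55.5%) and 7 of 19 USP genes (36.8%, interval 19.2 to 59.0%) had a peak, against 10.4% and 8.34% of other genes of like length. In PC3, 6 of 25 (24.0%, interval 11.5 to 43.4%) and 3 of 19 (15.8%, interval 5.52 to 37.6%) did, against 3.79% and 3.18%. The intervals of the 2 groups overlap widely in both lines.

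**Figure D1:**
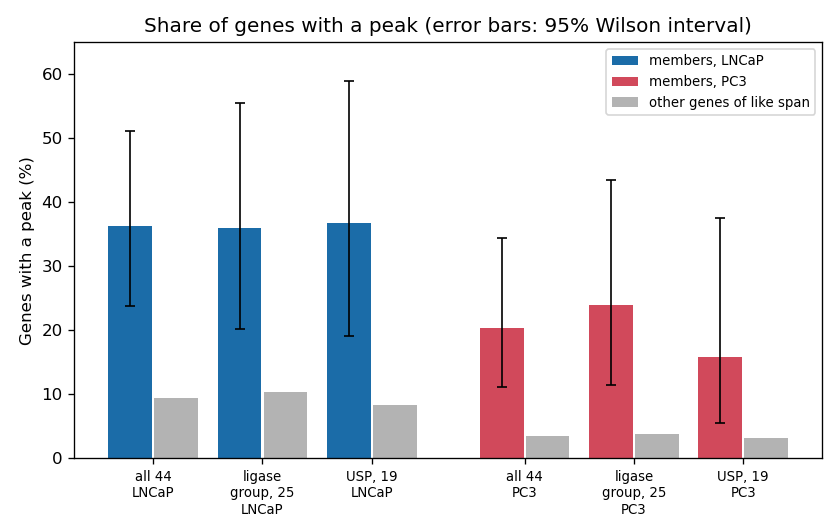
Percentage of genes with a peak for all 44 members, the ligase group and the USP proteases in LNCaP and PC3, with 95% Wilson intervals as error bars, beside other protein-coding genes whose span is within 20% of a member's (grey). Each member bar stands above its grey bar, from 36.4% against 9.49% for all members in LNCaP to 15.8% against 3.18% for USP proteases in PC3.

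The order of the lines depended on where each list ended. When both lists were limited to p-values of at most 1.59e-05, the largest in PC3, 3 members carried a peak in LNCaP, namely HUWE1, RNF213 and USP36, and 9 in PC3. At that threshold 1.33% of all protein-coding genes carried a LNCaP peak and 2.26% of genes of like length. Only 6 of the 56 LNCaP member peaks passed, 4 of them on HUWE1. A member with a peak in LNCaP alone is thus not shown to differ between the lines.

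Both lines had a peak on 6 of the 44 members, HUWE1, RNF213, RNF40, UBE2O, UBR4 and USP36. Over all 19974 protein-coding genes, 1122 had a peak in LNCaP (5.62%), 365 in PC3 (1.83%) and 231 in both (1.16%). Peaks in both lines or in 1 alone were not counted over genes of like length. A further 10 members had one in LNCaP alone, 4 in the ligase group (HECTD4, HERC1, HERC2, MYCBP2) and 6 USP genes (USP5, USP19, USP24, USP34, USP47, USP54). PC3 alone had a peak on 3, NEDD4L, USP8 and USP42. The order was the same over all protein-coding genes, with LNCaP alone the most frequent case and PC3 alone the least. The remaining 25 members had none. They are the HECT ligases TRIP12, UBE3B, UBE3C, NEDD4, ITCH, WWP1, WWP2 and SMURF1, then UBR2 and RNF20, the U-box ligase UBE4B, the hybrid BIRC6, the cullins CUL7 and CUL9, the E1 enzyme UBA1, and USP4, USP7, USP9X, USP11, USP15, USP20, USP22, USP31, USP32 and USP48. BIRC6, at 261856 bp, and USP32, at 245090 bp, were among the longest members without one, while RNF40, at 14696 bp, carried 4 in LNCaP and 1 in PC3.

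The peaks were unequally spread. LNCaP had 56 peaks on members, 47 in the ligase group and 9 on USP genes, and PC3 had 22, with 16 and 6. Of the 16 LNCaP members, 7 had a single peak, and 5 of those were USP proteases. HUWE1, RNF213, HERC2 and MYCBP2 together held 35 of the 56 LNCaP peaks, and HUWE1 alone held 11 of the 22 in PC3. Joining peaks on 1 strand that lay within 25 bp of each other left 49 stretches in LNCaP and 19 in PC3. By stretches, HUWE1 had 9 in LNCaP and 10 in PC3. RNF40, with 4 LNCaP peaks, had 2 there, and in PC3 USP36, with 3 peaks, had 2 and USP8, with 2, had 1.

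**Figure D2:**
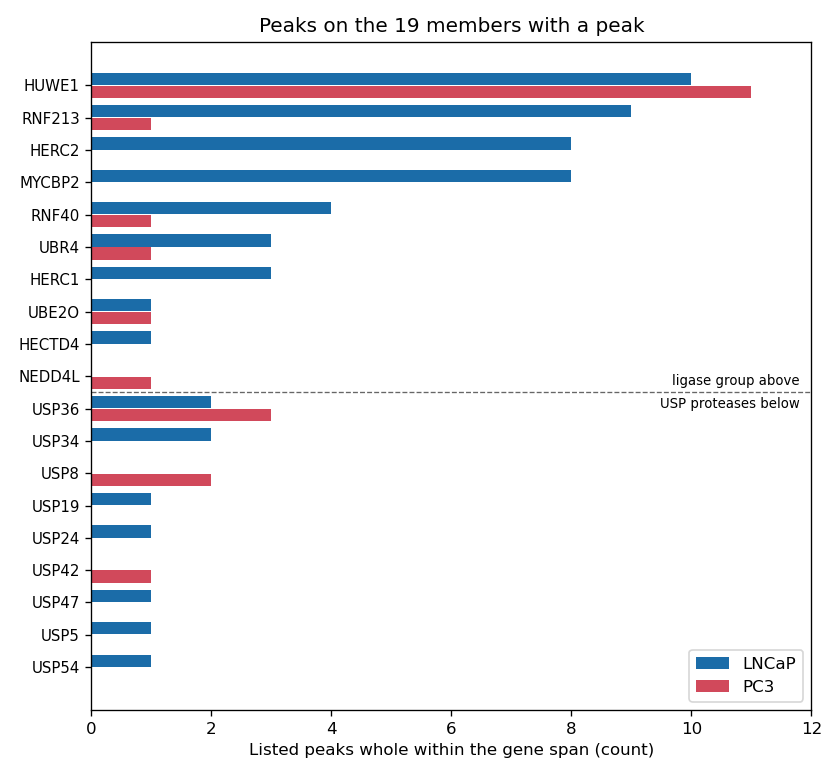
Number of listed peaks whole within the gene span for the 19 members with a peak in at least 1 line, in LNCaP (blue) and PC3 (red), the ligase group above the dashed line and USP proteases below it. HUWE1 has 10 peaks in LNCaP and 11 in PC3, whereas RNF213, HERC2 and MYCBP2 have 9, 8 and 8 in LNCaP and 1, 0 and 0 in PC3.

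On HUWE1 (chromosome X, 53532096 to 53686719, minus strand) most peaks of either line met one of the other. With 10 LNCaP peaks it was number 21 of the 1122 genes with a peak, and with 11 PC3 peaks number 9 of 365. Among 1046 other genes of like span, 5 had at least as many peaks in LNCaP and 3 in PC3. LNCaP folds ran from 3.77 to 26.6 with a median of 6.64, and PC3 folds from 7.18 to 12.3 with a median of 9.27. The highest LNCaP fold stood at 53547695 to 53548120, where PC3 had 2 short peaks with folds of 10.3 and 9.27. By count, 8 of 10 peaks in LNCaP and 9 of 11 in PC3 met a peak of the other line on the same strand.

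The strongest HUWE1 peak by p was the same in both lines and lay 78.5% of the way along the gene. It ran from 53561824 to 53568735 in LNCaP (fold 8.25, p = 4.45e-12, number 40 of the list) and from 53561774 to 53568760 in PC3 (fold 12.3, p = 2.25e-55, number 12), the p being the authors'. The next by p in both, at 53589644 to 53593366 in LNCaP and 53589619 to 53593416 in PC3, had folds of 11.3 and 10.7. A peak that began at 53583764 in both lines ended at 53586785 in LNCaP and 53586550 in PC3, with folds of 11.4 and 9.64. The bounds of these peaks differed by at most 50 bp, save for the last end, which differed by 235 bp. The peaks without a counterpart were at 53615779 to 53616988 and 53680162 to 53680559 in LNCaP (folds 5.03 and 3.77) and at 53543931 to 53544597 and 53647506 to 53647556 in PC3 (folds 11.7 and 7.92).

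**Figure D3:**
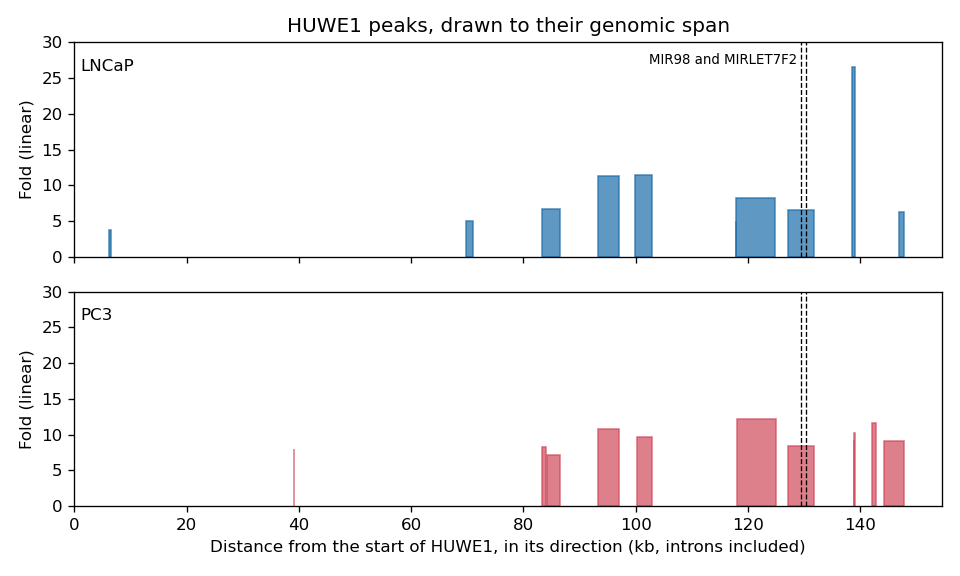
Peaks on HUWE1 in LNCaP (upper) and PC3 (lower), drawn to their genomic span along the gene in kb from its start and with the linear fold as height; dashed lines mark the hairpins MIR98 and MIRLET7F2. The main blocks stand at the same places in both lines, and the tallest LNCaP peak, at a fold of 26.6, faces PC3 folds of 10.3 and 9.27.

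The other HECT ligases with LNCaP peaks had no PC3 peak. HERC2, which acts in DNA repair, carried 8 (chromosome 15, 28111040 to 28322179, minus strand), with folds from 3.85 to 26.9 and a median of 6.13. Its highest fold, also the highest on any member, was on a peak of 394 bp at 28176560 to 28176953 (the authors' p = 0.000146), and a neighbour at 28175514 to 28175639 had a fold of 14.5. HERC1, a giant relative of HERC2, had 3, with folds of 7.21, 8.87 and 2.87. The one with a fold of 8.87 (63678232 to 63713553) lay on the plus strand, opposite to the gene. HECTD4 had 1 peak (chromosome 12, 112176648 to 112178951, fold 5.30). None of these 12 peaks reached the largest PC3 p. In PC3, NEDD4L, which marks the epithelial sodium channel for removal from the cell surface, had 1 peak of 76 bp (chromosome 18, 58342919 to 58342994, plus strand, fold 3.97).

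Among the RING and UBR ligases, RNF213, a very large RING protein with an ATPase motor known from moyamoya disease, had 9 LNCaP peaks and 1 PC3 peak (chromosome 17, 80260852 to 80398794, plus strand). LNCaP folds ran from 3.87 to 11.1 with a median of 6.26. The smallest p was at 80278832 to 80287911 (fold 10.0, the authors' p = 6.17e-09), where PC3 had no peak. The PC3 peak at 80288236 to 80290590 (fold 5.27) lay wholly inside a weaker LNCaP peak at 80288186 to 80290640 (fold 4.02). A LNCaP peak of 25891 bp on the minus strand (80355202 to 80381092, fold 4.96) lay within the span of the antisense gene RNF213-AS1, as did 2 of the plus-strand peaks. MYCBP2, a RING ligase known for its part in axon growth, had 8 LNCaP peaks on chromosome 13 with folds from 3.73 to 7.93, of which 1 was on the strand opposite to the gene (77077940 to 77098014, fold 4.30), and no PC3 peak.

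RNF40 and UBR4 had peaks in both lines. RNF40 pairs with RNF20 to attach ubiquitin to histone H2B. RNF20 had no peak, while RNF40 had 4 in LNCaP within 1039 bp near the middle of the gene (chromosome 16, 30768451 to 30769489), with folds of 5.62, 5.96, 6.21 and 3.97. The single PC3 peak had the same bounds as the second of these (30768890 to 30769188) and a fold of 3.64. UBR4, which recognises destabilising amino termini, had LNCaP folds of 12.9, 9.64 and 6.0 on chromosome 1, and its PC3 peak (19096559 to 19097276, fold 6.14) began at the same base as the first LNCaP peak (19096559 to 19100440). UBE2O, a hybrid of E2 and E3 that acts on ribosomal proteins, had 1 peak per line on chromosome 17, from 76396540 to 76397867 in LNCaP (fold 3.89) and from 76396615 to 76396765 in PC3 (fold 4.17). Thus each PC3 peak on these 3 genes lay within a LNCaP peak.

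USP36, a nucleolar protease, was the only USP gene with a peak in both lines (chromosome 17, 78787381 to 78841439, minus strand). It had 2 in LNCaP, as did USP34, and 3 in PC3, where USP8 followed with 2. LNCaP folds were 22.4 (78802528 to 78803527, the authors' p = 9.18e-06) and 8.53 (78803602 to 78803777). At both places PC3 had a peak, with folds of 6.07 (78802478 to 78803552) and 4.76 (78803577 to 78803802), and all bounds lay within 50 bp of those in LNCaP. The remaining PC3 peak, at 78798474 to 78798930 with a fold of 6.23, had no LNCaP counterpart.

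The other USP genes with a peak had 1 or 2 each, in a single line. USP34, which has been tied to Wnt signalling, had 2 LNCaP peaks 175 bp apart on chromosome 2 (61348195 to 61348295, fold 8.04, and 61348470 to 61348845, fold 4.02). Single LNCaP peaks were present on USP24 (fold 6.03), USP19 (4.92), USP54 (4.76), USP47 (4.66) and USP5 (4.57), the last an enzyme that takes apart free ubiquitin chains. Those of USP24 and USP19 lay towards the gene start. The USP24 peak of 51 bp began 293 bp after that start (chromosome 1, 55215021 to 55215071, with the direction taken from the strand of the peak), and the USP19 peak 1662 bp after it (chromosome 3, 49118085 to 49119161). A second LNCaP peak on USP19 (49120779 to 49120879, fold 4.81, the authors' p = 0.00451) crossed the gene boundary with 45 of its 101 bp inside, so it was not counted. It was the only peak in either list to lie partly within a member. In PC3, USP8, which acts on receptors in endosomes, had 2 peaks on chromosome 15 (50481558 to 50481733 and 50481758 to 50481958) with folds of 3.34 and 3.33, the lowest on members in that list. USP42 had 1 (chromosome 7, 6154986 to 6155161, fold 6.45).

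Most PC3 member peaks stood at a place where LNCaP also had one. Of the 22 PC3 member peaks, 15 overlapped a LNCaP peak on the same strand by at least 1 bp (68.2%, interval 47.3 to 83.6%), against 430 of 983 PC3 peaks on other genes (43.7%, interval 40.7 to 46.9%). HUWE1 gave 9 of the 15, and without it the share was 6 of 11 (54.5%, interval 28.0 to 78.7%). From the LNCaP side, 14 of 56 member peaks overlapped (25%), against 21.4% on other genes. With at least 50% of both peaks required, 40.9% of the PC3 member peaks overlapped, and with LNCaP peaks held to the largest PC3 p, 27.3% did. These stricter shares were not computed for other genes. All intervals of overlap take peaks of 1 gene as separate units. The 16 overlapping pairs had a higher fold in PC3 in 8 and in LNCaP in 8, with ratios of PC3 to LNCaP from 0.272 on USP36 to 2.41 on HUWE1. That highest ratio belongs to a pair sharing 1 bp. The authors' p was the smaller in PC3 in all 16. In most of these pairs the LNCaP p lay above 1.59e-05, where the PC3 list ends, so the PC3 p had to be the smaller. Only the other pairs, on HUWE1 and USP36, could have gone either way. The reason for the smaller PC3 p was not tested.

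**Figure D4:**
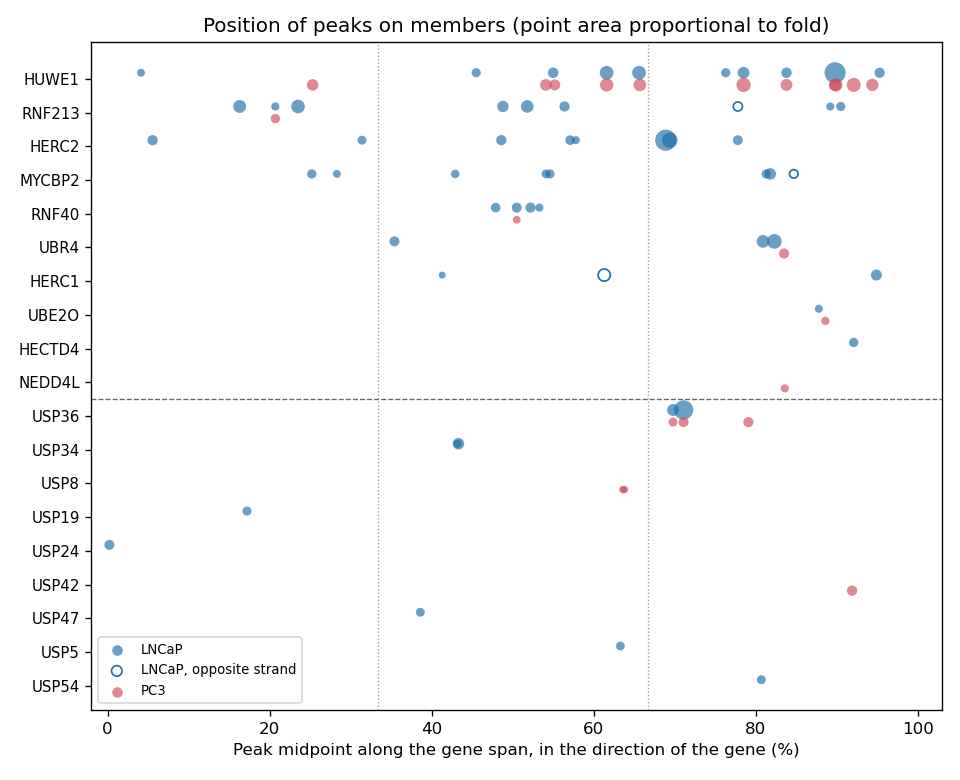
Midpoint of every member peak along its gene span, in percent in the direction of the gene, for LNCaP (blue) and PC3 (red), with point area proportional to the linear fold, open circles for the 3 LNCaP peaks on the opposite strand and dotted lines at the borders of 3 equal parts. On HUWE1, USP36, RNF40, UBR4, UBE2O and RNF213 at least 1 peak of each line overlaps one of the other line. On RNF213 this holds for 1 of 9 LNCaP peaks.

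The position of member peaks along the gene was set beside that of peaks on other genes. With the span cut into 3 equal parts in the direction of the gene, the last part held 22 of 56 LNCaP member peaks (39.3%, interval 27.6 to 52.4%), against 46.8% on other genes, and 13 of 22 in PC3 (59.1%, interval 38.7 to 76.7%), against 58.0%. The first part held 10 of 56 (17.9%) and 2 of 22 (9.09%), against 19.4% and 13.4% on other genes. The intervals of the members include the values of the other genes in each of these cases. They count every peak as a unit and take no account of the clustering of peaks on few genes, so no difference was tested. By group, the last part held 19 of 47 ligase peaks and 3 of 9 USP peaks in LNCaP, and 9 of 16 and 4 of 6 in PC3. Strand was given for 36 of the 44 members, and 3 of 55 LNCaP peaks on those lay on the strand opposite to the gene (5.45%, interval 1.87 to 14.8%), against 3.25% on other genes, and 0 of 21 in PC3.

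Folds of member peaks were set beside those of other genes in the same list. The median was 5.92 in LNCaP (95% interval from order statistics 5.04 to 6.41, 56 peaks), against 5.25 on other genes (interval 5.14 to 5.36), and 6.81 in PC3 (4.76 to 9.27, 22 peaks), against 5.74 (5.50 to 5.95). The PC3 value rested on HUWE1: its 11 peaks had a median of 9.27 and the 11 peaks on the remaining 8 members one of 4.76. In LNCaP the median without HUWE1 was 5.64. The ligase group had a median of 5.96 in LNCaP and 8.34 in PC3, and the USP proteases 4.92 and 5.42. Without HUWE1, the ligase group had a median of 5.67 in LNCaP (37 peaks) and 4.17 in PC3 (5 peaks), the latter below the USP value. As each list has its own folds, those of the lines are given side by side and were not tested against each other.

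**Figure D5:**
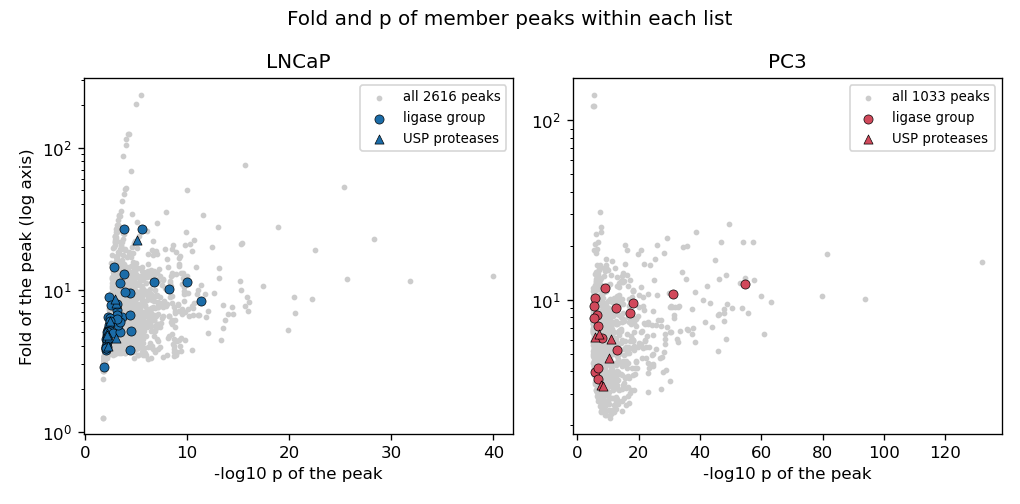
Fold (log axis) against −log10 p for all peaks of the LNCaP list (left, 2616 peaks, grey) and the PC3 list (right, 1033 peaks, grey), with ligase group peaks as coloured circles and USP peaks as triangles. Member peaks lie within the cloud of each list; the highest member folds are 26.9 in LNCaP and 12.3 in PC3.

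Ubiquitin enzymes outside the 44 were counted over lists of related families. Of 102 other genes of the pathway in the gene table, 7 carried a peak in LNCaP (6.86%, interval 3.36 to 13.5%) and 1 in PC3 (0.980%, interval 0.173 to 5.35%), against 5.62% and 1.83% of all protein-coding genes. These genes were not set beside others of like length. The median span of their families ran from 3478 bp (ubiquitin genes) to 161785 bp (other UBR ligases). By family, LNCaP had peaks on 1 of 32 other USP proteases (USP25) and 2 of 34 deubiquitinases of other families (OTUD7A, OTUD7B). Other HECT and UBR ligases with a LNCaP peak, HECW1 and HERC3 among them, numbered 4 of 18 and held 9 peaks, and 0 of 18 had one in PC3. The 6 other cullins, the 8 other E1 enzymes and the 4 ubiquitin genes had none in either line. OTUD7B, an OTU protease that acts in NF-κB signalling, was the only one with a PC3 peak (chromosome 1, 149950139 to 149959701, fold 5.53). It began at the same base as the LNCaP peak there (149950139 to 149959776, fold 6.79). Peaks on USP genes therefore fell on 7 of the 19 members and 1 of 32 other USP genes in LNCaP, in a list drawn up with these peaks known.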

How the data were processed

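The 2 replicates of METTL3 IP and input per line stand behind each deposited list, but the lists hold no values per sample. The submitters' processing notes name fastp, STAR 2.5.3a, bedtools and deepTools and the build hg38; the peak caller, its filters and the handling of replicates are not given in the sources used here. Per the file headers, each deposited row carries a linear fold, p-value, FDR and score. Recomputing the Benjamini-Hochberg adjustment within a list gave the deposited FDR in every row, and the deposited score was its negative log2. Peaks were set against gene spans of RefSeq on GRCh38.p14, with gene strand from its table of gene starts where given and otherwise from the peak. Counting used Python 3.11.15, pandas 2.3.3, NumPy 2.4.6 and SciPy 1.17.1, and was tested on simulated peaks. Intervals are 95% Wilson intervals or, for medians, binomial order statistics, with peaks or genes as units. Those over peaks take peaks of 1 gene as separate units and so take no account of their clustering on few genes. Depth is unknown. Results on some genes outside the members are not reported here. Members and lists were chosen with earlier results of these data known. By rule, coordinates were printed for the 5 members per line with the largest folds, smallest p-values and most peaks, for those with overlapping peaks or a PC3 peak alone, and for USP4; those of other members were added after their values were seen. Alternatives were other thresholds, peak assignment, strand, joined peaks, length windows and overlap rules.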

Additional observations from a re-analysis of the deposited data

How the results depend on the processing

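No paired analysis was possible because the lists used here give no value for single samples, which also kept replicates from being left out in turn. Of 101 alternative values over 15 results, 88 stayed within 1.5 times a count or within the interval of a share or median, and 13 moved. The 88 include values that could not move. In PC3 the limits on p and on FDR removed no peak, since that list ends at a p of 1.59e-05. The 88 also include PC3 counts exactly at the limit of 1.5 times. At a fold of at least 4, PC3 members with a peak fell from 9 to 6. The ligase group fell from 6 to 4 and the USP genes from 3 to 2. At p-values up to the largest in PC3, LNCaP kept 3 members with a peak (2 in the ligase group and 1 USP gene), 6 member peaks with a median fold of 11.3, and a like-length share of 2.26%, and the overlap of PC3 member peaks was 27.3%; fewer LNCaP peaks enter by construction. Without HUWE1, PC3 had 11 member peaks. The like-length share in LNCaP was 8.75% at an FDR of at most 0.01, 8.21% at a fold of at least 4 and 8.70% with spans within 50%, and in PC3 it was 2.79% at a fold of at least 4. The intervals used for these shares (9.01 to 9.99% in LNCaP, 3.23 to 3.85% in PC3) took each as 1 share of distinct genes. Each share is a mean over 44 members with overlapping sets of genes, so these intervals do not measure its spread. Overlap of at least 50% of both peaks gave 40.9%. Depth is unknown, so how far it limits these counts cannot be said.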
